A study of Rattus norvegicus with 12 samples.

Results

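The AP-1 and Egr immediate early genes were followed in the terminal end buds at the tips of growing mammary ducts, in rats given diethylstilbestrol at birth. The 10 genes are Fos, Fosl1, Jun, Junb, Jund, Egr1, Egr2, Dusp1, Zfp36 and Nr4a1. They were found on the array by RefSeq accession, and a gene was kept if the authors called a probe for it present or marginal on both arrays of at least 1 of the 6 groups. Of the 10 genes, 8 were kept, among 11882 genes and unnamed transcripts tested in all. Fosl1 was called absent in every group, so no level is given for it, and no probe was matched to Egr2. The kept genes are therefore not the whole family. The filter asks only for detection in 1 group, so a kept gene can be undetected in others.

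The animals were inbred female Sprague-Dawley rats, and each received 1 subcutaneous injection as a newborn. The control group had 0.05 ml of sesame oil, and the other groups had 1 µg or 100 µg of diethylstilbestrol (DES), a synthetic estrogen, in the same volume of oil. Pups were weaned at 21 days, and autopsy at 35 or 49 days of age gave the abdominal mammary glands. Terminal end buds were cut from toluidine blue stained sections with a laser, and amplified RNA of each animal was hybridised to a 1-colour Agilent rat array. Each of the 6 groups holds 2 animals and 2 arrays, and the number of arrays limits the precision.

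Immediate early genes are switched on within minutes of a stimulus without new protein synthesis, through kinase cascades that reach serum response factor and CREB at their promoters. Fos and Jun family proteins pair to form the transcription factor AP-1, and Egr proteins are zinc finger factors that bind GC-rich sites. The mRNAs are short-lived, and some of the products (Dusp1, Zfp36) limit the same response. Estrogen and growth factors are known to induce Fos and Egr1 in hormone-responsive epithelium, and cutting or handling of tissue can induce them as well.

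The promoters of Egr1, Zfp36, Nr4a1 and Junb, which had the widest spread after Fos (Egr1, Junb, Zfp36, with Dusp1 aside because its spread rests on values set to a floor) or the same low arrays as Fos (Nr4a1), are shown for the sites through which this class is known to be induced. They are the 250 bases before the transcription start from RefSeq (build GRCr8), which had an entry for 8 of the 10 members and none for Fos and Jun. Both strands were searched for the CArG box bound by serum response factor, the CRE (TGACGTCA), the AP-1 site (TGANTCA), the Egr site (GCGNGGGCG) and the TATA box (TATAAA), and matches are in capitals. The motifs do not overlap in the sequences printed. The Egr1 window, chr18:26736828-26737077 on the plus strand, holds 2 CArG boxes.
Egr1: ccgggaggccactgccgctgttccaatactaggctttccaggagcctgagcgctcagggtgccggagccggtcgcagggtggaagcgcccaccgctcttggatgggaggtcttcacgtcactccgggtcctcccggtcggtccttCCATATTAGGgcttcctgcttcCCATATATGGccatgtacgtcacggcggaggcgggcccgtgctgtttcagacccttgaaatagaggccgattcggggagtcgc
The Zfp36 window, chr1:92799109-92799358 on the minus strand, holds 1 CArG box and 1 Egr site.
Zfp36: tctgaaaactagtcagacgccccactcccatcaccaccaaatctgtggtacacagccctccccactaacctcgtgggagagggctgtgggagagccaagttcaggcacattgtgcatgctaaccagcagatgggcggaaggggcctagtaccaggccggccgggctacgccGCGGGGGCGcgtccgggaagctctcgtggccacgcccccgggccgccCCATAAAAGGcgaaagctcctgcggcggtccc
The Nr4a1 window, chr7:134259888-134260137 on the plus strand, holds 1 Egr site, on the opposite strand.
Nr4a1: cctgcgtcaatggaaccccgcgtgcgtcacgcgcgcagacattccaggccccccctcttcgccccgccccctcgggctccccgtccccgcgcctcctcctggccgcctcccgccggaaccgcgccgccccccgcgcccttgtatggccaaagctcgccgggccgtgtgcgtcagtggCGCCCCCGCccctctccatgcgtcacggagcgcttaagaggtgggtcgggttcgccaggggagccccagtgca
The Junb window, chr19:40080876-40081125 on the plus strand, holds a TATA box and none of the other motifs.
Junb: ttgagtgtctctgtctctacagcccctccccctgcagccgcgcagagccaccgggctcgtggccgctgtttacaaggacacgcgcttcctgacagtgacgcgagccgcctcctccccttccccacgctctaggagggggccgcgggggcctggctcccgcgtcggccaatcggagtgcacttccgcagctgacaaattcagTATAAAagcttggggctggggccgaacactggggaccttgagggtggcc
In the windows not printed, Dusp1 held 1 CRE, Jund 1 CRE and 3 Egr sites, Egr2 1 CArG box and Fosl1 none of the motifs. Over 33469 RefSeq promoters of the same length, 1.5% held a CArG box, 1.59% a CRE, 6.34% an AP-1 site, 4.29% an Egr site and 12.9% a TATA box. Among the 4881 tested genes with an entry the shares were 1.21%, 2.6%, 4.94%, 8.15% and 6.88%. A match describes letters in the window and does not show binding.

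The arrays were checked before the members were compared. Of the epithelial markers, Epcam lay between 566.7 and 909.6 times the array median, and Krt19 between 399.3 and 829.3 times. Cdh1 was detected in all 6 groups at a lower level, between 3.317 and 13.39 times. No probe was matched to Krt8, Krt18, Trp63 or Acta2. The basal keratin Krt14 was detected in all 6 groups, and Krt5 on both arrays of 3 groups. Markers of stroma were present too: 6 of 7 tested fibroblast genes and all 6 adipocyte genes were detected in every group. Cdh5, Tek and Eng (endothelium), Plin1 and Lep (adipocyte) and Cd3e, Cd79b and Cd2 (lymphocyte) were not detected in any. The 2 oil arrays at 49 days stood apart. Their median signal was 16.4 and 15.3, against 23.6 to 39 on the other 10, and their lowest detected signal was 1.04 and 1.03 times the median, against 0.214 to 0.368. They scored 76.2 and 70.8 on the first principal component, and the others scored from -35.7 to 9.7. The scanner files of the other 10 arrays gave 5 scan days of 2 arrays each. For the oil arrays at 49 days the scan day is unknown, so its part in comparisons with them was not tested, and results that use none of these arrays are given separately.

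Levels are given as the signal of a gene divided by the median signal of its array. Differences are log2 differences of group means with their standard error (SE), from a limma fit over all 12 arrays. A gene is said to have passed where its p, adjusted by the Benjamini-Hochberg method over all 11882 features, was below 0.05. In whole dissected buds, fewer cells of a type and less RNA per cell cannot be told apart.

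Fos, which supplies the partner that Jun proteins need for the most stable AP-1 dimers, was low in 2 of the 6 groups. In oil it stood at 38.4 and 30.8 times the median at 35 days and at 34.3 and 34.7 times at 49 days. With DES 1 µg it was 12.03 and 10.18 times at 35 days, and 35.9 and 35.6 times at 49 days. With DES 100 µg the order of the ages was the other way round, with 30.6 and 23.2 times at 35 days and 11.6 and 10.1 times at 49 days. The 4 low arrays were therefore those of DES 1 µg at 35 days and of DES 100 µg at 49 days, and they did not overlap with the other 8.

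In order of group means, Fos was highest with DES 1 µg at 49 days (35.7 times the median), then in oil at 49 days (34.5) and oil at 35 days (34.4), with DES 100 µg at 35 days (26.7), DES 1 µg at 35 days (11.1) and DES 100 µg at 49 days (10.8). The 2 oil groups overlapped, as did the 2 lowest groups. Over the 12 arrays the highest Fos level was 3.797 times the lowest, and 91.8% of the tested features had a smaller standard deviation.

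Egr1, a zinc finger factor induced through CArG boxes, was high on 2 arrays. Oil arrays held it at 140.1 and 122.8 times the median at 35 days and at 156.7 and 135.3 times at 49 days. With DES 1 µg it was 118.5 and 141.4 times at 35 days and 375.8 and 385 times at 49 days. The higher dose gave 165.8 and 168.5 times at 35 days and 119.9 and 175.5 times at 49 days. Both DES 1 µg arrays at 49 days lay above the other 10 arrays, which ranged from 118.5 to 175.5 times. In the order of group means DES 100 µg at 35 days came next and did not overlap with oil at 49 days, the group after it, but 1 array of DES 100 µg at 49 days lay above it. The last 4 groups overlapped with their neighbours.

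Junb, a Jun family member that can restrain Jun, also peaked with DES 1 µg at 49 days, at 7.75 and 6.56 times the median. It was lowest in oil at 49 days, at 2.56 and 3.14 times, below its level in oil at 35 days of 6.36 and 4.76 times. With DES 1 µg at 35 days it was 4.03 and 3.81 times. The DES 100 µg arrays lay between, at 4.56 and 4.79 times at 35 days and 3.76 and 4.54 times at 49 days. The highest and the lowest group did not overlap with their neighbours in the order of means.

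Nr4a1, an orphan nuclear receptor induced by growth factors, had the same 4 low arrays as Fos within a smaller range. It was 17.5 and 16.1 times the median with DES 1 µg at 35 days and 17.7 and 16.9 times with DES 100 µg at 49 days. The other 8 arrays ranged from 22.4 to 27.3 times, so the low arrays did not overlap with them. Its whole span was 1.70-fold, and 29.1% of the tested features had a smaller standard deviation.

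Zfp36, an RNA-binding protein that speeds the decay of short-lived mRNAs, was 4.0 and 3.36 times the median with DES 1 µg at 35 days and 7.03 and 8.06 times at 49 days. At the higher dose it was 6.27 and 4.46 times at 35 days and 4.06 and 4.98 times at 49 days. In oil it was 6.16 and 4.08 times at 35 days and 7.56 and 6.73 times at 49 days. The 4 arrays of oil and DES 1 µg at 49 days were the highest, and several lower groups overlapped.

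Jun and Jund, the other measured AP-1 partners, varied less. Jun ranged from 35.0 to 57.1 times the median, with its highest value on a DES 1 µg array at 49 days (51.3 and 57.1 times in that group), and every pair of neighbouring groups in its order overlapped. Jund, the Jun protein present most steadily in resting cells, ranged from 113.4 to 221.5 times and had its lowest 2 values in oil at 49 days. Each gene had a second, dimmer probe. The probes differed in sign in several comparisons, in none of which the gene passed. For Jun these were both DES age differences (0.49 and -0.28 with DES 1 µg, 0.23 and -0.31 with DES 100 µg) and the dose difference at 35 days (0.047 and -0.20). For Jund the widest gap among the comparisons of 2 groups was in the DES 1 µg age difference (0.14 and -0.62), and signs also differed for DES 1 µg minus oil at 49 days (0.33 and -0.38), DES 100 µg minus oil at 35 days (0.31 and -0.21), the dose difference at 35 days (0.44 and -0.093) and both changes that involve DES 1 µg.

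Dusp1, a phosphatase that switches off MAP kinases, was close to the detection limit. It was detected on both arrays only with DES 1 µg and DES 100 µg at 35 days, at 0.308 and 0.582 times and at 0.368 and 0.408 times the median. The 2 oil arrays at 49 days were not above background, and their values were set to the floor of 0.01. The detection limit there was higher than any Dusp1 value on the other arrays, so no size is given for its differences from that group, and counts are given with and without it.

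**Figure D1:**
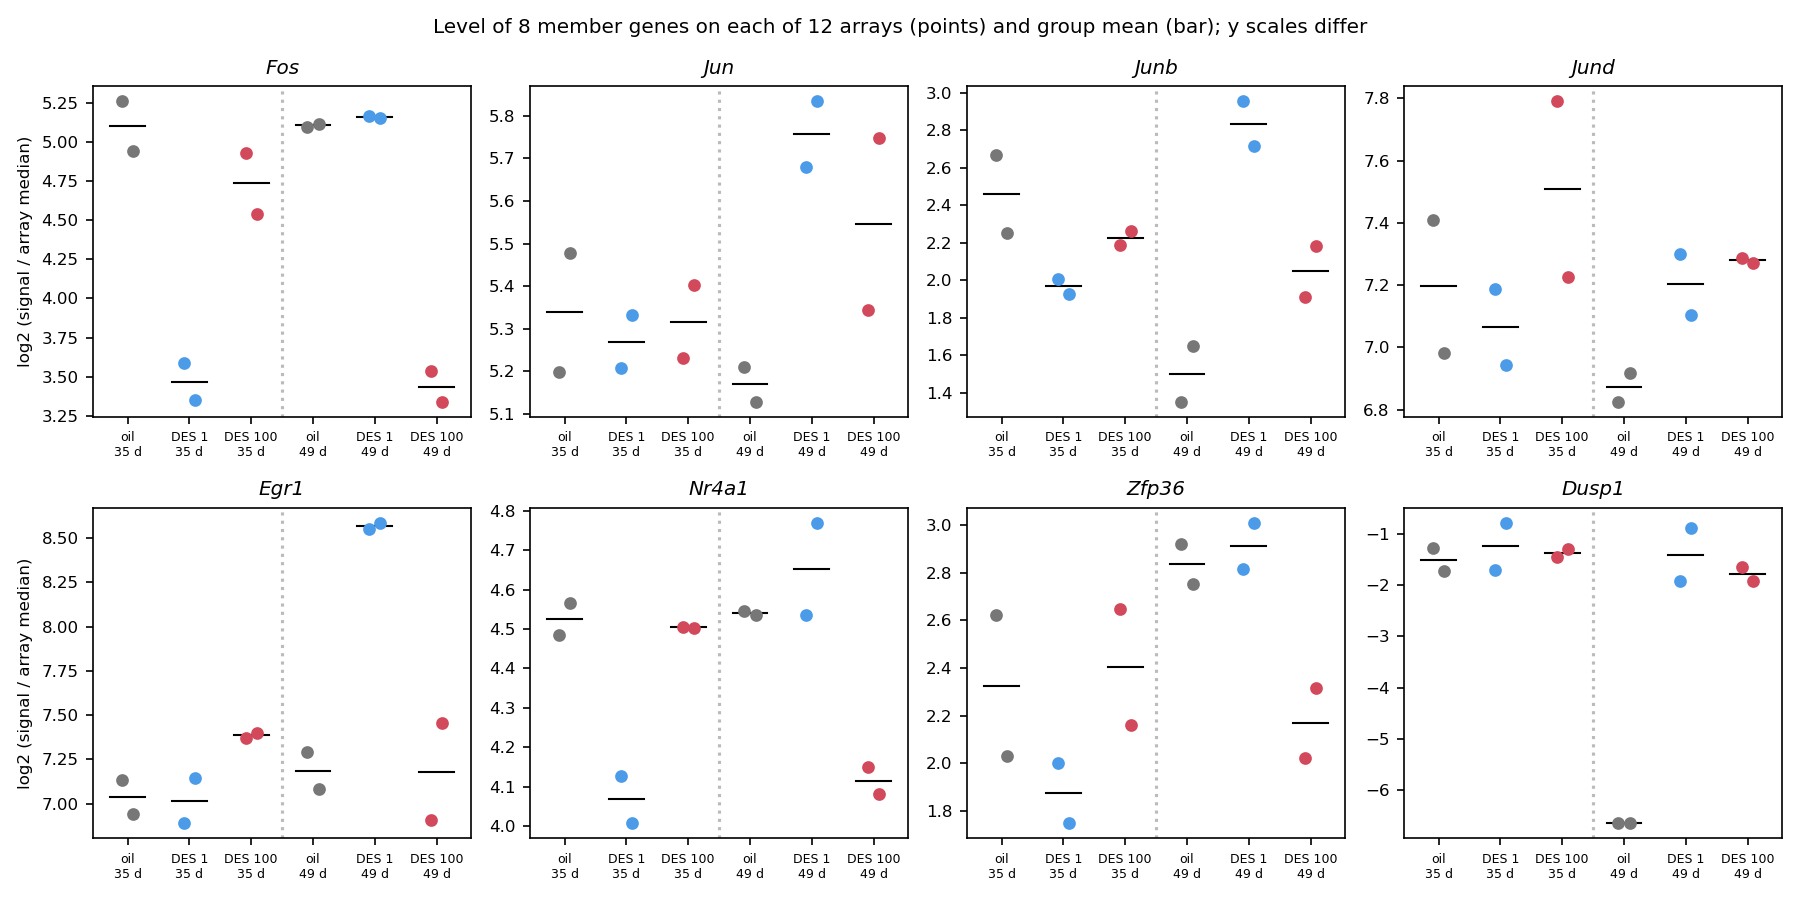
Log2 of the signal over the array median (y axis, a scale for each panel) for 8 member genes in 6 groups (x axis), with 1 point for each of 2 arrays a group and a bar at the group mean. Fos and Nr4a1 are low with DES 1 µg at 35 days and with DES 100 µg at 49 days, Egr1 is high with DES 1 µg at 49 days, and Dusp1 in oil at 49 days sits at the floor.

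Fos was 3.11-fold lower with DES 1 µg at 35 days than in oil of that age (log2 -1.64 ± 0.17 SE, 95% interval -2.03 to -1.24, adjusted p = 0.00129 in limma, 2 arrays in each group). Nr4a1 sat at the threshold (-0.46 ± 0.11, adjusted p = 0.0495): it passed only because unnamed probes of 1 transcript were counted once, a choice made after its value had been seen, and with those probes kept apart its adjusted p was 0.0511. Counting it, 2 of 8 members were lower and none higher, where 7.41% of all features passed, with 4.24% lower and 3.16% higher. Of the 8 members, 4 had groups that did not overlap, against 50.5% of all features. Junb (-0.49 ± 0.18, adjusted p = 0.147) and Zfp36 (-0.45 ± 0.24, adjusted p = 0.298) did not pass, and in both the DES arrays lay below the oil arrays. Egr1 (-0.019 ± 0.19), Jun (-0.069 ± 0.17) and Jund (-0.13 ± 0.21) did not pass. The member median was -0.29, and the median of all features -0.03. On the day that 1 array of each group was scanned, Fos differed by -1.68 and Nr4a1 by -0.36. The authors' deposited list for this comparison, which is kept to probes past 2-fold, holds Fos at a fold of 0.323, and no other member.

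Other genes of the response moved with Fos in part. Atf3, a stress-induced factor that can pair with Jun proteins, was lower (-1.54 ± 0.12, adjusted p = 0.000276), as was Batf3, another AP-1 family protein (-1.29 ± 0.24, adjusted p = 0.015). In the list of other AP-1 and Egr family genes 3 of 10 measured were lower and none higher, the last of them Nr4a3, which was not detected in every group compared. Its median was -0.40. Among 26 other immediate early genes 3 were higher and 1 lower, with a median of -0.04. Ccn1, a matricellular protein induced with this class, rose (0.92 ± 0.14, adjusted p = 0.00692), Ier3 rose (0.66 ± 0.14) and the phosphatase gene Dusp5 fell (-0.62 ± 0.10). Of 14 genes known as AP-1 or Egr1 targets 4 fell and 1 rose, at a median of -0.52. Icam1, an adhesion molecule, fell (-1.04 ± 0.16) as did F3, tissue factor (-0.79 ± 0.16), and the metallothionein gene Mt1 rose (1.68 ± 0.26). None of 10 kinases and serum response factor partners passed (median -0.05).

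Markers of other cell types moved in the same arrays. The log2 of the summed level of 6 adipocyte genes was 9.22 and 9.34 with DES 1 µg at 35 days, against 8.54 and 8.48 in oil, and 4 of the 6 were higher. That of 4 endothelial genes was 6.24 and 6.30 against 5.37 and 5.49, with 3 of 4 higher, and that of 7 fibroblast genes was 11.11 and 11.03 against 10.4 and 10.4, with 2 of 7 higher. Luminal markers summed to 10.2 and 10.2 against 10.9 and 10.8, with 2 of 6 lower and 1 higher. Immune markers were lower too: 3 of 4 lymphocyte genes (median -0.88) and 2 of 6 macrophage genes (median -0.73, all 6 below 0). Genes of both lists were also lower with DES 100 µg at 35 days, where Fos did not pass. Of 11 heat shock and handling stress genes none passed, at a median of -0.26 with all 11 below 0, and Hspa1a stood at -0.43 ± 0.14 (adjusted p = 0.105). Their part in the Fos difference was not tested.

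With DES 100 µg at 35 days no member passed against oil, either after adjustment in limma or at an unadjusted p below 0.05 (0 of 8 each), where 1.28% of all features passed (0.404% higher and 0.875% lower). Fos differed by -0.37 ± 0.17 (interval -0.76 to 0.028, adjusted p = 0.479) and Egr1 by 0.35 ± 0.19 (interval -0.081 to 0.78, adjusted p = 0.56). In both the 2 groups did not overlap, as for 40% of all features. The other members ranged from -0.24 for Junb to 0.31 for Jund, and the member median was 0.03 against 0.02 for all features. Ccn1 rose among 26 other immediate early genes (1.06 ± 0.14, adjusted p = 0.0106), 1 of them higher and none lower. Lymphocyte genes were lower in 2 of 4 (median -1.11, all 4 below 0) and macrophage genes in 2 of 6 (median -0.79, 5 below 0). Of 7 fibroblast genes 1 was lower, and no luminal, basal, endothelial, adipocyte or heat shock gene passed. The part of these markers was not tested. No scan day held an array of each group.

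At 49 days DES 1 µg went with 2.61-fold more Egr1 and 2.52-fold more Junb than oil. The log2 differences were 1.39 ± 0.19 for Egr1 and 1.33 ± 0.18 for Junb (2 arrays in each group, adjusted p = 0.00209 and 0.00208 in limma). These oil arrays stood apart in signal, and in oil Junb was itself lower at 49 than at 35 days (-0.96 ± 0.18). Egr1 in oil did not pass between the ages (0.15 ± 0.19). Jun also passed, at a smaller difference (0.59 ± 0.17, adjusted p = 0.0291), and its call ended without any 1 of the 4 arrays (adjusted p up to 0.132). With Dusp1, 4 of 8 members were higher, or 3 without it, and none was lower, where 31.8% of all features passed, 12.7% higher and 19.1% lower. In 6 of 8 members the groups did not overlap, against 74.8% of all features. Fos did not pass (0.051 ± 0.17, interval -0.34 to 0.45), nor did Nr4a1 (0.11 ± 0.11), Zfp36 (0.077 ± 0.24) and Jund (0.33 ± 0.21). The authors' deposited list of probes past 2-fold holds Egr1 at a fold of 2.61 and no other member. Junb is not in it although it differed 2.52-fold here, and the reason was not tested.

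The other immediate early genes were examined in the same comparison. Of 26 other immediate early genes 9 rose and 2 fell (median 0.41, against -0.09 for all features). Ier3 rose by 3.16 ± 0.14, Ccn1 by 2.61 ± 0.14 and Sgk1, a kinase induced by serum and glucocorticoids, by 1.80 ± 0.13 (adjusted p = 4.44e-05, 9.93e-05 and 0.000221). Atf3 rose by 2.13 ± 0.12, and in its list 3 of 10 rose and 1 fell, with Mafk and Jdp2 not detected in every group compared. In oil, Atf3 was itself lower at 49 than at 35 days (-1.92 ± 0.12), and Ier3 also passed as lower. Ccn1 and Sgk1 did not pass between the ages in oil. Of 14 AP-1 or Egr1 targets 2 rose and 4 fell, and Mmp3, a matrix protease, fell (-1.38 ± 0.16, adjusted p = 0.00127). All 7 fibroblast genes were higher, as were 5 of 6 adipocyte and 3 of 4 endothelial genes, with the fourth lower. Luminal genes were lower in 3 of 6 (Krt19, Krt7, Cldn3), with Cdh1 higher, and basal genes in 2 of 6. Summed fibroblast levels were 11.4 and 11.1 on the log2 scale, against 10.5 and 10.6 in oil, and adipocyte levels 9.54 and 9.49 against 8.69 and 8.63. Of 11 heat shock genes 2 fell and none rose. The part of these markers was not tested.

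With DES 100 µg at 49 days Fos was 3.19-fold lower than in oil (-1.67 ± 0.17, adjusted p = 0.00113), with the groups apart. Nr4a1 was lower by a smaller step (-0.43 ± 0.11, adjusted p = 0.0295). Its call ended without any 1 of the 4 arrays (adjusted p up to 0.13) and with 75th percentile scaling or quantile normalization (adjusted p = 0.0884 and 0.132). Dusp1 passed by the floor, so 3 of 8 members passed, or 2 without it, where 25.2% of all features did, 11% higher and 14.2% lower. In 7 of 8 members the groups did not overlap, against 68.7% of all features. Zfp36 (-0.67 ± 0.24, adjusted p = 0.0739) and Junb (0.55 ± 0.18, adjusted p = 0.0579) did not pass, but Junb did with 75th percentile scaling (0.63, adjusted p = 0.0215) and quantile normalization (0.53, adjusted p = 0.0393). Egr1 stood at -0.0055 ± 0.19. The authors' deposited list of probes past 2-fold holds Fos at a fold of 0.314 and no other member. Atf3 was higher (2.35 ± 0.12, adjusted p = 4.87e-05), against oil arrays in which it was lower than at 35 days (-1.92 ± 0.12), and Btg2, an antiproliferative early gene, fell (-1.38 ± 0.13). Among 26 other immediate early genes 5 rose and 3 fell, at a median of 0.19 against -0.07 for all features. Of 14 AP-1 or Egr1 targets 3 rose and 2 fell (median -0.32). Icam1 (1.02 ± 0.16) and Mmp3 (0.75 ± 0.16) were higher and Mt1 was lower (-1.84 ± 0.26), each opposite in sign to its difference with DES 1 µg at 35 days. In the oil arrays themselves Icam1 was lower at 49 than at 35 days (-1.22 ± 0.16) and Mt1 higher (1.75 ± 0.26), and both passed. Mmp3 did not pass between the ages in oil (-0.22 ± 0.16). Of 11 heat shock genes 3 rose and 1 fell, with Hspa1a at 0.81 ± 0.14, and adipocyte genes were higher in 3 of 6, fibroblast genes in 2 of 7 and endothelial genes in 1 of 4, with 1 lower. Lymphocyte genes were higher in 2 of 4 (median 0.59, all 4 above 0), opposite in sign to Fos, and none of 6 macrophage genes passed. Luminal Krt19 and Muc1 were lower and Cdh1 higher, and basal Myh11 was higher. The part of these markers in the Fos difference was not tested. The DES and oil comparisons at an age share their oil arrays.

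**Figure D2:**
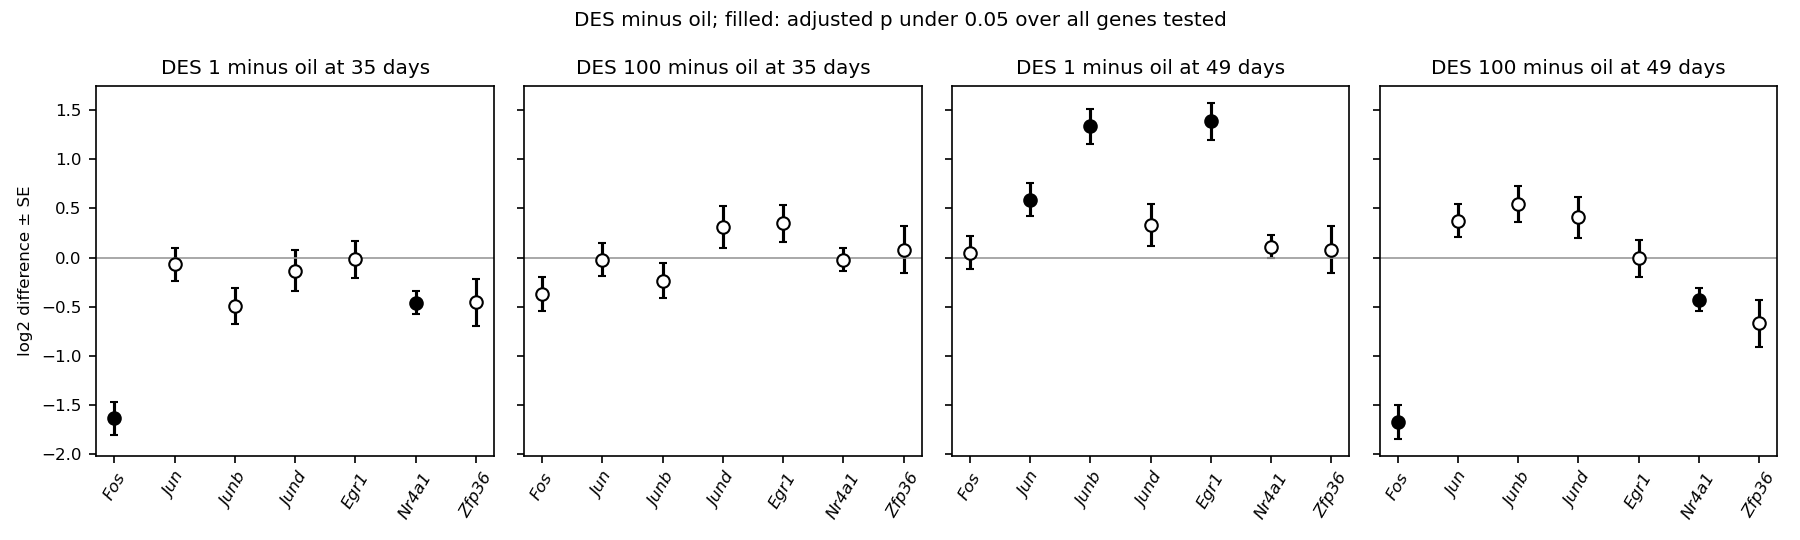
Log2 difference of DES minus oil (y axis, with SE) for 7 members (x axis) at each dose and age, filled where the adjusted p was below 0.05. Fos lies at -1.64 with DES 1 µg at 35 days and at -1.67 with DES 100 µg at 49 days, and Egr1 and Junb lie above 1 only with DES 1 µg at 49 days.

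Between the doses, Fos reversed its order with age, and the sizes of these differences rest on no oil array. Their SE and adjusted p come from the fit over all arrays, oil included. At 35 days the higher dose had 2.41-fold more (1.27 ± 0.17, interval 0.87 to 1.66, adjusted p = 0.00337). At 49 days the higher dose had 3.30-fold less (-1.72 ± 0.17, interval -2.12 to -1.33, adjusted p = 0.00135). The groups did not overlap at either age. On scan days that held 1 array of each dose, the differences were 1.19 at 35 days and -1.81 at 49 days. The change between the ages, tested as an interaction, was -2.99 ± 0.24 (adjusted p = 0.00083).

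At 35 days Fos was the 1 member of 8 that passed between the doses, where 7.98% of all features passed, 4.14% higher and 3.84% lower. Nr4a1 stood at 0.44 ± 0.11 (adjusted p = 0.0557), Zfp36 at 0.53 ± 0.24, Jund at 0.44 ± 0.21 and Egr1 at 0.37 ± 0.19. In 6 of 8 members the doses did not overlap, against 52.8% of all features. The member median was 0.40, against 0.05 over all features.

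At 49 days 4 of 8 members passed, all lower with DES 100 µg, where 6.72% of all features passed, 3.58% higher and 3.15% lower. In 5 of 8 members the doses did not overlap, against 52.5% of all features. Besides Fos they were Egr1, 2.62-fold lower (-1.39 ± 0.19, adjusted p = 0.00523), Junb (-0.79 ± 0.18, adjusted p = 0.0402) and Nr4a1 (-0.54 ± 0.11, adjusted p = 0.0302). Fos and Egr1 passed with each of the 4 arrays left out in turn, and Junb and Nr4a1 failed with each left out (adjusted p up to 0.21 and 0.159). Without the 2 oil arrays at 49 days in the fit, Fos and Egr1 passed, and Junb and Nr4a1 had an adjusted p of 0.0527 and 0.0616. On the shared scan day Egr1 differed by -1.13, Junb by -0.53 and Nr4a1 by -0.69. Zfp36 did not pass (-0.74 ± 0.24, adjusted p = 0.107). The member median was -0.64, against 0.02 over all features.

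**Figure D3:**
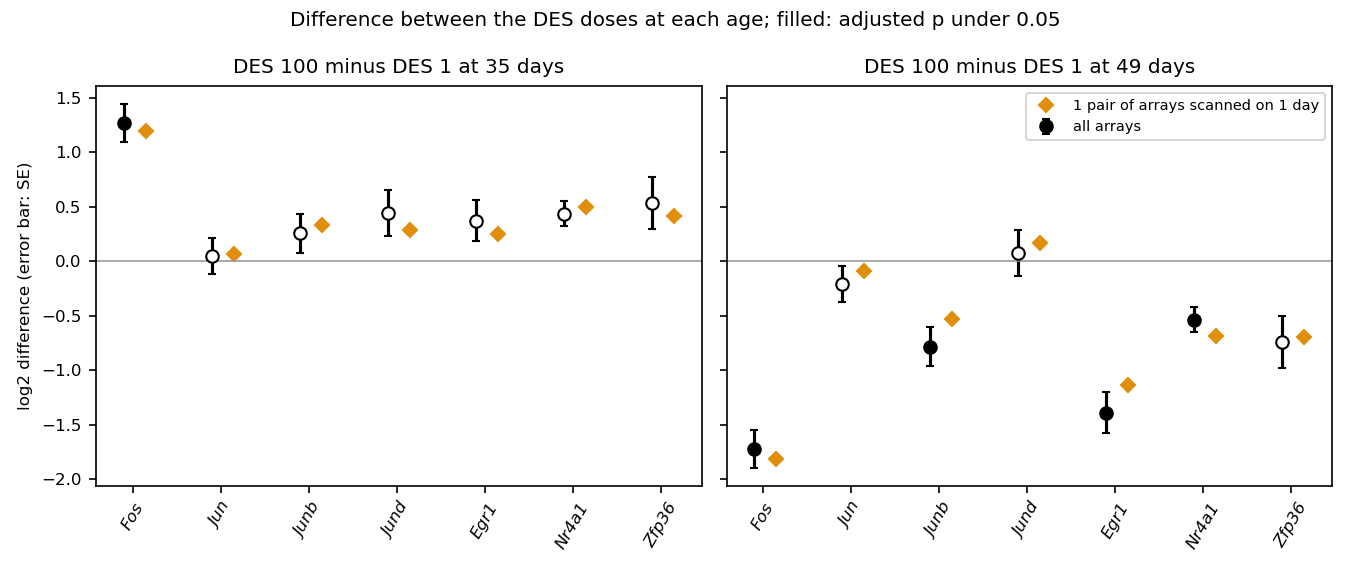
Log2 difference of DES 100 µg minus DES 1 µg (y axis) for 7 members (x axis) at 35 and at 49 days. Circles with SE use all arrays and are filled where the adjusted p was below 0.05, and diamonds are the 1 pair of arrays scanned on the same day. Fos lies at 1.27 at 35 days and at -1.72 at 49 days, with diamonds at 1.19 and -1.81.

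In the change of the dose difference from 35 to 49 days, 3 of 8 members passed, all negative, where 2.5% of all features passed, 1.09% positive and 1.41% negative. They were Fos, Egr1 (-1.76 ± 0.27, adjusted p = 0.0152) and Nr4a1 (-0.97 ± 0.16, adjusted p = 0.0226). Fos passed without each of the 8 arrays in turn. Egr1 lost its call without either DES 1 µg array at 49 days or either DES 100 µg array at 35 days (adjusted p up to 0.061), and Nr4a1 lost it without 5 of the 8 (up to 0.0866). Without the oil arrays at 49 days Nr4a1 had an adjusted p of 0.0501. Junb (-1.04 ± 0.26, adjusted p = 0.0814) and Zfp36 (-1.27 ± 0.34, adjusted p = 0.102) did not pass, but Junb did with 75th percentile scaling (adjusted p = 0.0478), quantile normalization (0.0419) and normexp correction (0.0362). The member median was -1.01, against -0.02 over all features.

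Other immediate early genes were set beside the members in the dose comparison. At 35 days 4 of 26 were higher at the higher dose and 1 was lower (median 0.10). Ccn2, a matricellular protein (1.20 ± 0.16), the transcription factor Klf4 (1.01 ± 0.15) and Dusp5 (0.55 ± 0.10) were higher. At 49 days none was higher and 5 were lower (median -0.05): Sgk1 (-2.15 ± 0.13), Ier3 (-1.88 ± 0.14), Ccn1 (-1.76 ± 0.14), Arc and Socs3, the last 2 not detected in every group. In the change between the ages 6 of 26 passed, all negative, with Ccn1 (-1.90 ± 0.20), Ier3 (-1.60 ± 0.20) and Sgk1 (-1.54 ± 0.18) among them. Atf3, 1 of 10 in its list to pass there, changed by -1.74 ± 0.17 (adjusted p = 0.00225). Its dose difference was 1.96 ± 0.12 at 35 days and 0.21 ± 0.12 at 49 days.

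Among 14 known AP-1 or Egr1 targets 4 were higher and 1 lower at the higher dose at 35 days, where Mmp3 (1.01 ± 0.16) and F3 (0.93 ± 0.16) were higher and Mt1 was lower (-1.96 ± 0.26). At 49 days only Mmp3 passed among the 14, and it was higher (2.13 ± 0.16, adjusted p = 0.000334), opposite in sign to Fos and Egr1. In the change between the ages 1 of the 14 was positive, Mmp3 (1.12 ± 0.23, adjusted p = 0.0457), and 2 were negative as Fos and Egr1 were, F3 (-1.21 ± 0.22, adjusted p = 0.0348) and Nqo1 (-1.16 ± 0.24, adjusted p = 0.0494). None of the 10 kinases and serum response factor partners passed between the doses at either age.

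**Figure D4:**
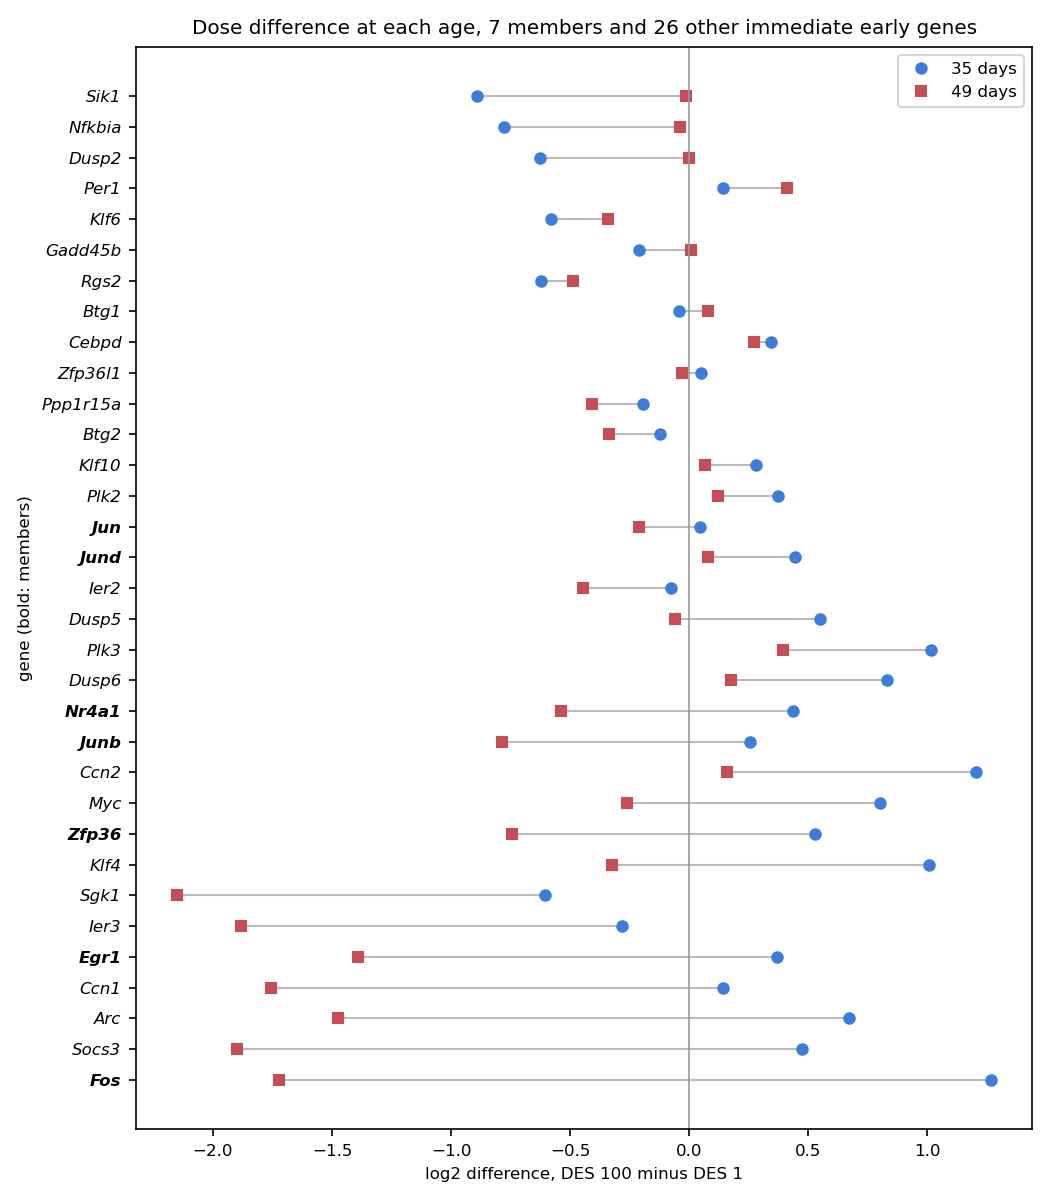
Log2 difference of DES 100 µg minus DES 1 µg (x axis) at 35 days (circles) and 49 days (squares) for 7 members (bold) and 26 other immediate early genes (y axis), ordered by the change between the ages. Fos, at the bottom, moves from 1.27 to -1.72, and the medians of the 26 other genes are 0.10 and -0.05.

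Markers of cell types were compared between the doses on the same arrays. Luminal Krt19 and Krt7 were higher at the higher dose at 35 days and Muc1 lower (list median 0.56), and at 49 days Krt19 was higher and Muc1 lower. Basal Cnn1 was higher at 35 days, and at 49 days Myh11 and Cnn1 were higher and Krt14 lower. Adipocyte genes were lower with DES 100 µg in 4 of 6 at 35 days, with Cd36 higher, and in 4 of 6 at 49 days. Endothelial genes were lower in 3 of 4 and 2 of 4, and fibroblast genes in 3 of 7 and 1 of 7. In the change between the ages none of the luminal, basal, fibroblast, endothelial, adipocyte, macrophage, lymphocyte or heat shock genes passed in limma. Several came close, with Hspa5 at 1.00 ± 0.21 (adjusted p = 0.0526), Pparg at -1.03 ± 0.23 (0.0565), Emcn at 0.90 ± 0.21 (0.0655) and Kdr at 1.07 ± 0.25 (0.0699), and the same fit recovered 24% of simulated 2-fold changes. Hspa1a was higher with DES 100 µg at 35 days (1.06 ± 0.14, adjusted p = 0.00312), 1 of 11 heat shock genes, and Hsph1 (0.84 ± 0.16) and Hspa5 (0.80 ± 0.15) were higher at 49 days, 2 of 11. Whether these markers bear on the members' dose differences, or on their change with age, was not tested.

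**Figure D5:**
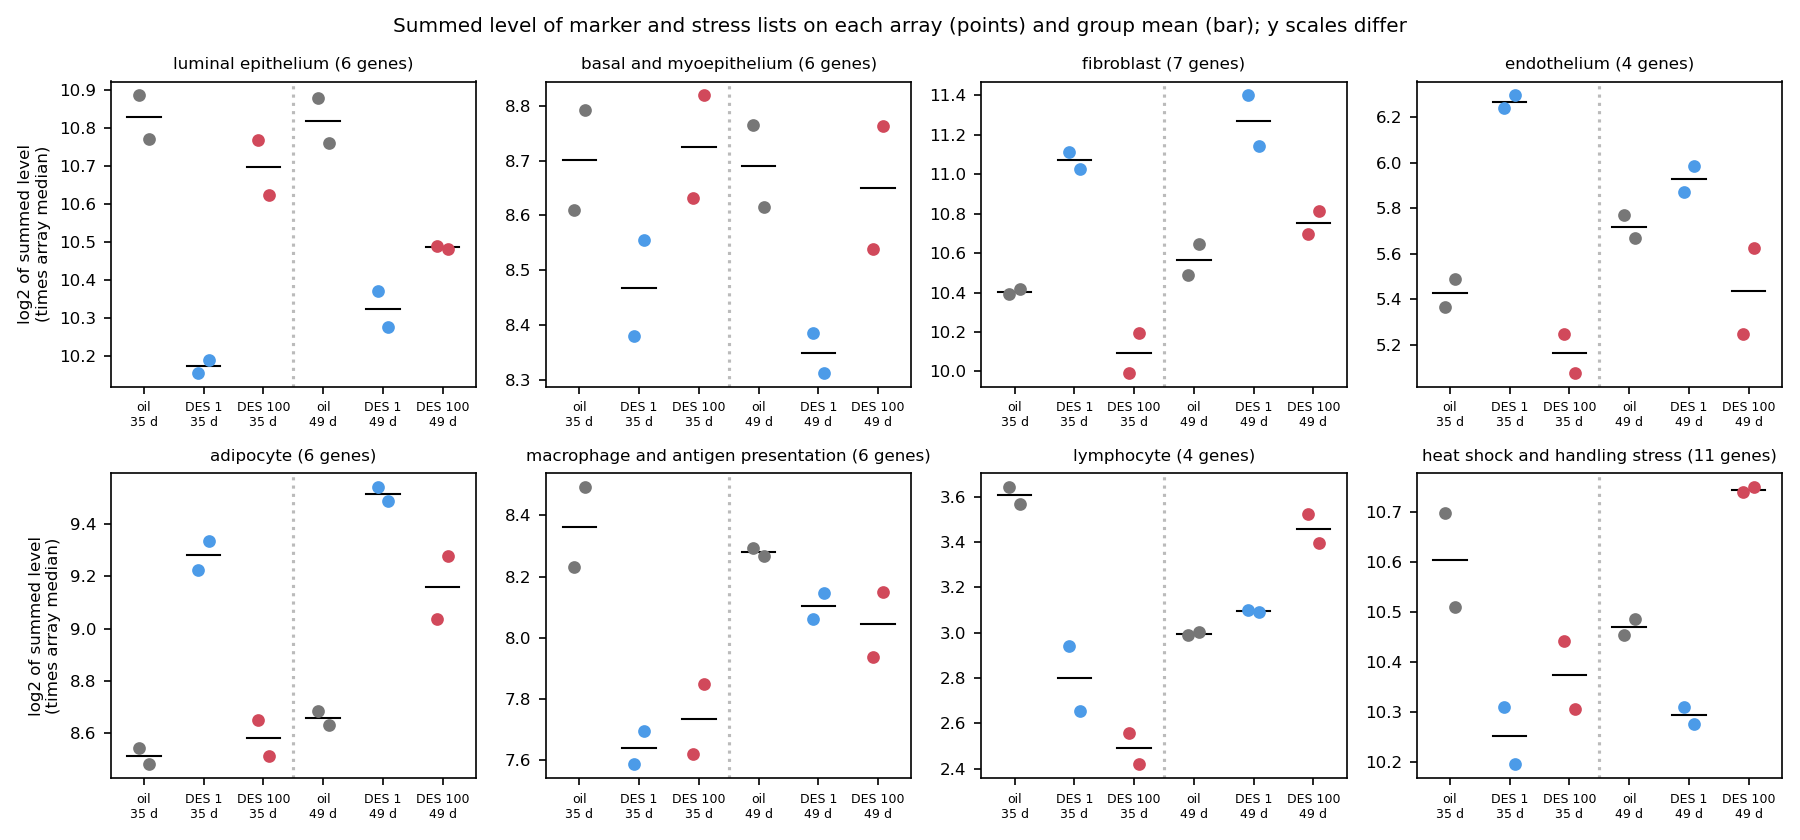
Log2 of the summed level, in times the array median, of cell type marker lists and of heat shock and handling stress genes (y axis, a scale for each panel) in 6 groups (x axis), with a point for each array and a bar at the group mean. Adipocyte sums are 9.22 and 9.34 with DES 1 µg at 35 days and 9.54 and 9.49 at 49 days, and endothelial and fibroblast sums are also highest with DES 1 µg at each age.

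Age was compared within each treatment. In oil, Junb fell by 0.96 on the log2 scale from 35 to 49 days (SE 0.18, adjusted p = 0.005), and with Dusp1, 2 of 8 members were lower, or 1 without it, where 41.7% of all features passed, 27.7% higher and 14% lower. In 4 of 8 members the ages did not overlap, against 76.5% of all features. All features had a median of 0.16 in this comparison, so the fall of Junb is larger relative to it. Fos (0.0049 ± 0.17), Nr4a1 (0.016 ± 0.11) and Egr1 (0.15 ± 0.19) did not pass. Atf3 fell (-1.92 ± 0.12, adjusted p = 0.000151), and of 26 other immediate early genes 4 rose and 6 fell, among them Ppp1r15a (0.74 ± 0.13) and Dusp5 (-0.50 ± 0.10).

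After DES 1 µg, Fos was 3.23-fold higher at 49 than at 35 days (1.69 ± 0.17, adjusted p = 0.00188) and Egr1 2.94-fold higher (1.56 ± 0.19, adjusted p = 0.00414). Junb (0.86 ± 0.18, adjusted p = 0.0375) and Nr4a1 (0.58 ± 0.11, adjusted p = 0.0303) rose too, so 4 of 8 members were higher, where 4.17% of all features passed, 3.37% higher and 0.808% lower. The ages did not overlap in 6 of 8 members, against 50.1% of all features. The calls of Junb and Nr4a1 ended without any 1 of the 4 arrays (adjusted p up to 0.214 and 0.154) and without the oil arrays at 49 days (0.0528 and 0.0613), and that of Nr4a1 also with 75th percentile scaling, quantile normalization and normexp correction (0.103, 0.0969 and 0.135). Zfp36 was just outside (1.04 ± 0.24, adjusted p = 0.0528). Of 26 other immediate early genes 5 rose and none fell, led by Ier3 (1.97 ± 0.14), Sgk1 (1.45 ± 0.13) and Ccn1 (1.30 ± 0.14), and Atf3 rose by 1.76 ± 0.12. Of 6 macrophage genes 1 was higher (Cd74), with all 6 above 0 (median 0.57). Fibroblast Mgp was higher, endothelial Emcn and basal Myh11 were lower, and no luminal, adipocyte or lymphocyte gene passed. Among 11 heat shock genes Dnajb1 rose (0.59 ± 0.12), with 9 above 0. The part of these markers was not tested. After DES 100 µg, Fos was 2.46-fold lower at 49 days (-1.30 ± 0.17, adjusted p = 0.00495), the 1 member of 8 to pass, where 5.93% of all features did, 4.44% higher and 1.5% lower. The ages did not overlap in 4 of 8 members, against 50.6% of all features. Of the other immediate early genes 1 rose and 5 fell in that group, among them Klf4 (-0.86 ± 0.15), and Atf3 stood at 0.019 ± 0.12. All 4 lymphocyte genes (median 1.02), 3 of 7 fibroblast genes and the heat shock genes Hspa5 (0.94 ± 0.15) and Hsph1 (0.92 ± 0.16) rose in these arrays, and their part was not tested. No scan day held both ages of 1 treatment.

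The effect of DES against oil was also tested for a change between the ages, which rests on the oil arrays at 49 days. For DES 1 µg, 5 of 8 members changed upward, or 4 without Dusp1, where 20.8% of all features passed, 9.53% upward and 11.3% downward. They were Junb (1.82 ± 0.26, adjusted p = 0.00579), Fos (1.69 ± 0.24, adjusted p = 0.00633), Egr1 (1.40 ± 0.27, adjusted p = 0.0136) and Nr4a1 (0.57 ± 0.16, adjusted p = 0.0418). Egr1 lost its call without oil array 1 at 35 days (adjusted p = 0.05), and Nr4a1 lost it without 7 of 8 arrays (up to 0.122). For DES 100 µg, Fos changed downward (-1.30 ± 0.24, adjusted p = 0.0188), and Dusp1 passed by the floor, where 9.86% of all features passed, 4.63% upward and 5.23% downward. The Fos call ended without oil array 2 at 35 days, oil array 1 at 49 days or DES 100 µg array 1 at 35 days (adjusted p up to 0.0644).

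Genes with a pattern nearest to that of Fos or Egr1 were named by the root mean square difference of centred log2 levels over the 12 arrays, among 578 genes that were detected in all groups and varied at least as much as the 75th percentile. For Fos they were Spef2 (0.29), Pls1 (0.38), Prph (0.44), Tmod4 (0.52) and Capn8 (0.52), against a median of 0.97 over the 578. For Egr1 they were Gtf2f2 (0.27), Asgr2 (0.28), Rarres2 (0.37), Plcb1 (0.39) and Sgk1 (0.39), against a median of 0.82. All arrays of a group share their treatment and age, so these distances describe 6 groups. Among the members themselves Zfp36 and Nr4a1 were nearest to each other (0.28), and Zfp36 (0.52) and Nr4a1 (0.55) were nearest to Fos. The distance does not adjust for spread, so members of small spread lie near each other whatever their pattern, as Jun and Nr4a1 did (0.30). Egr1, Junb, Jund and Jun lay 0.75 to 0.81 from Fos, whose own standard deviation was 0.80.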

How the data were processed

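Per the labels, RNA from dissected terminal end buds was amplified, labelled with Cy3 and hybridised to Agilent arrays, and signals were read with Agilent Feature Extraction 9.1.3.1 per the submitters' processing notes. The deposited value table holds processed signal intensity with no scaling between arrays, and its values differ from the 10 scanner files used by at most 0.497%. For oil at 49 days no scanner file was used here. The authors' normalized table holds a ratio to the array median and to oil at 35 days. Their deposited comparison lists hold only probes past 2-fold, with a linear fold and no test. The genome build and annotation are not given in the sources used here.

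Intensities were divided by the array median, floored at 0.01 and taken to log2. Of 20500 probes that are not controls, 13266 were kept by the authors' detection flags. Names came from RefSeq, by accession first. The brightest probe stood for a gene, and unnamed probes of 1 accession were treated as 1 transcript, leaving 11882 features, 5611 with a symbol. That grouping was set after member values had been seen. The 6 group means were fitted over 12 arrays in limma 3.58.1 under R 4.3.3, with 6 residual degrees of freedom. On simulated data with 200 changed genes among 11882, the fit for DES 1 µg minus oil at 35 days recovered 49% of 2-fold and 86% of 4-fold changes, with 6.25% of calls false. In the change of the dose difference it recovered 24% and 74%.

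The members, gene lists, motifs and naming rules were chosen with earlier results of these data known. All members are named, and at most 3 genes of a list by smallest p in a comparison (Arc and Socs3 complete a count of 5, and were added after their values were seen). Alternatives were 75th percentile scaling, quantile normalization, the authors' table, normexp correction, no detection filter, the mean of probes, a floor of 0.1, replicate and scan day blocks, and leaving out arrays. The planned mean signal is not a column of the scanner files, so normexp used the median signal.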

Additional observations from a re-analysis of the deposited data

Results flagged for a closer look

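Effects that differed between the ages by the interaction test were flagged, and the arrays at 35 and 49 days come from different animals. The DES 1 µg effect changed by 1.69 for Fos, 1.82 for Junb, 1.40 for Egr1 and 0.57 for Nr4a1 on the log2 scale. The DES 100 µg effect changed by -1.30 for Fos. Both use the oil arrays at 49 days, which stood apart in signal. Dusp1 was flagged in both through fitted values of 4.97 and 4.73, which the floor sets and which are no measure of size: a floor of 0.1 gives 1.65 and 1.41. The difference between the doses, whose size rests on no oil array, changed by -2.99 for Fos, -1.76 for Egr1 and -0.97 for Nr4a1. Its SE and adjusted p come from a fit that includes the oil arrays, and Nr4a1 did not pass without those at 49 days.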

How the results depend on the processing

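Of 96 member differences, 31 passed, and 19 of those passed without each array in turn. No value that passed in either setting changed sign, in 936 values under other settings and 480 with an array left out, while 26 and 33 values that passed in neither setting did. The 2 members called between DES 1 µg and oil at 35 days became 1 (Fos) under 75th percentile scaling, quantile normalization, the authors' table, normexp, the mean of probes, a floor of 0.1, without the oil arrays at 49 days, and with unnamed probes kept separately (chosen after seeing the data), and 1 without any array (range 1 to 1). With scan day as a block on 10 arrays, 1 residual degree of freedom was left and 0 members passed in limma in all 7 comparisons it could fit. Fos then differed by -1.54 for DES 1 µg minus oil at 35 days, and by 1.32 and -1.68 between the doses at 35 and 49 days. Without the oil arrays at 49 days, 2 in place of 4 members passed between the doses at 49 days and for age with DES 1 µg. Leaving out an array gave 2 to 2 in both. The change of the DES 1 µg effect had 3 members in place of 5 with 75th percentile scaling, and 3 to 5 with an array left out. That of DES 100 µg had 1 in place of 2 with a floor of 0.1, and 1 to 2, and the change of the dose difference had 1 to 3. Deviations of same-numbered arrays correlated between some groups (r from -0.121 to 0.432 over 15 pairs of groups, 6 of them over 0.1) and not in every pair, and the labels name no shared litter or batch, so the numbers were not taken as pairs. With the replicate block the counts in the 12 comparisons were 2, 0, 4, 3, 1, 4, 2, 5, 1, 6, 2 and 3, in the order DES minus oil, dose, age and change. Normexp and the scan day block gave no value for comparisons with oil at 49 days, for which no scanner file was used. Signal over background limits Dusp1 and Fosl1, and the cause of each change was not tested.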
